A study of Homo sapiens with 18 samples.

Results

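The 9 genes described here are MAGEB1, MAGEB2, MAGEB3, MAGEB4, MAGEB6, MAGEB10, MAGEC1, MAGEC2 and MAGEC3, X-linked members of the melanoma antigen (MAGE) family. They were chosen by symbol, and all 9 have an entry among the 23571 named genes of the deposited expression table. Transcript levels were measured by RNA sequencing in SW48, a human colon adenocarcinoma line, in 6 groups of 3 libraries. All cells received either an siRNA against CHD4 or a negative control siRNA, and the study asked whether CHD4 could be a target for epigenetic therapy. In the groups called siCHD4 plus siDNMT1 and control siRNA plus siDNMT1, cells first received an siRNA against DNMT1 on days 1, 3 and 5, then the test siRNA on days 7 and 8, and were harvested on day 11. In the groups called siCHD4 plus decitabine and control siRNA plus decitabine, the test siRNA on days 1 and 2 was combined with 50 nM decitabine on days 1, 2 and 3, with harvest on day 5. In the groups siCHD4 and control siRNA, transfection on days 1, 3 and 6 was followed by harvest on day 8. Whether the libraries within a group stem from independent cultures is not stated, so the p-values reflect a spread that may be technical. The agent and its schedule cannot be told apart wherever groups of different schedules are compared.

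MAGEA, MAGEB and MAGEC genes are cancer-testis genes: in adults they are transcribed mainly in male germ cells, DNA methylation of their promoters helps to keep them silent in most other tissues, and many tumours transcribe some of them again. Their proteins share the MAGE homology domain, through which several members bind RING-type ubiquitin ligases. CHD4 is the ATPase of the NuRD chromatin remodelling and histone deacetylase complex, DNMT1 copies DNA methylation onto newly replicated strands, and decitabine is a cytosine analogue that traps DNA methyltransferases on DNA.

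In GRCh37, the build the deposited table uses, the 9 genes lie in 4 places on chromosome X. MAGEB6 (chrX:26210557-26213763, plus strand) and MAGEB10 (chrX:27826107-27841131, plus strand) stand apart on the short arm. MAGEB2 (chrX:30233680-30238206), MAGEB3 (chrX:30248774-30255612), MAGEB4 (chrX:30260117-30262304) and MAGEB1 (chrX:30261832-30270157) follow each other on the plus strand, and the annotated ends of MAGEB4 and MAGEB1 share 473 bases. MAGEC3 (chrX:140926102-140985618, plus strand), MAGEC1 (chrX:140991680-140997160, plus strand) and MAGEC2 (chrX:141290128-141293076, minus strand) form the group on the long arm. MAGEC2 lies inside a longer non-coding gene annotated on the opposite strand, ENSG00000288098, which has no entry of its own in the table. Whether counting used strand is not given in the sources used here, so reads of that transcript and of MAGEC2 cannot be told apart.

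Because the genes are known for silencing at their promoters, the 250 bases before the RefSeq transcription start were read for all 9 and are shown for 5: the 3 most abundant genes, MAGEC1 because it resembles MAGEC2, and MAGEB4 because it stayed at 0. The sequences are from RefSeq (GRCh38.p14), and each had a single exact match in GRCh37, whose coordinates are given. They run 5′ to 3′ on the gene's own strand, and capitals mark the hexamers CCGGAA and CCGGAT or their reverse complements TTCCGG and ATCCGG. These hexamers hold the GGAA or GGAT core of sites bound by ETS-family factors together with a CG, the dinucleotide that DNMT1 methylates. MAGEB2 is shown over chrX:30233430-30233679 (plus), MAGEB6 over chrX:26210307-26210556 (plus), MAGEC2 over chrX:141293077-141293326 (minus), MAGEC1 over chrX:140991430-140991679 (plus) and MAGEB4 over chrX:30259867-30260116 (plus).
MAGEB2: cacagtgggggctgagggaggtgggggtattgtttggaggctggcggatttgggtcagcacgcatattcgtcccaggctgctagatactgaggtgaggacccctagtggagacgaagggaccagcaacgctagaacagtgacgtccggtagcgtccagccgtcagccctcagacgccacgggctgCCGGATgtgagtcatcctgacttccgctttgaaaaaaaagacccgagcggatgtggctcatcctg
MAGEB6: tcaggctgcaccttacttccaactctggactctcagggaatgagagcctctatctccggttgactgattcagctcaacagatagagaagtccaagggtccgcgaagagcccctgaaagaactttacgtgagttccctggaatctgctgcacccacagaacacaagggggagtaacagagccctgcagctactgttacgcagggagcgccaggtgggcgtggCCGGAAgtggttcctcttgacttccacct
MAGEC2: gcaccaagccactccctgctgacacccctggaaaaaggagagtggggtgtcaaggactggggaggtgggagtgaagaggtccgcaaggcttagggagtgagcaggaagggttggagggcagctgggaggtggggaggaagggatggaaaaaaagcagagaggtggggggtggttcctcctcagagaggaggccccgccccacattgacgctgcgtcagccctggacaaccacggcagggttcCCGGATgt
MAGEC1: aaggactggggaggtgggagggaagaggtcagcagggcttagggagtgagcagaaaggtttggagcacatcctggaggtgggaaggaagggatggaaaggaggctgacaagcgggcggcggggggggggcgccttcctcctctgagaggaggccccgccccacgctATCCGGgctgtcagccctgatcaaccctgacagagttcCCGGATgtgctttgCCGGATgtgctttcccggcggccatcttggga
MAGEB4: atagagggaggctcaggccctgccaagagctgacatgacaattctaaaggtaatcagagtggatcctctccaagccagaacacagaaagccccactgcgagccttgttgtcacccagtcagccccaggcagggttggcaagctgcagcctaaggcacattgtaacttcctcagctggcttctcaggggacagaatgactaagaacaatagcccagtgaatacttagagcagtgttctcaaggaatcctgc

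Levels are given in FPKM, the fragments of a gene scaled to transcript length and library size. All 5 members that reached 1 FPKM in at least 3 libraries, the filter on low values used for testing, held at least 1 of the hexamers in this window; they were MAGEB2, MAGEB6, MAGEB10, MAGEC1 and MAGEC2. MAGEB6 held CCGGAA once, MAGEB2, MAGEB10 and MAGEC2 held CCGGAT once each, and MAGEC1 held CCGGAT 3 times. The second of the RefSeq starts of MAGEB1 held CCGGAT once, while its first start, MAGEB3, MAGEB4 and MAGEC3 held neither hexamer. The MAGEC3 window (chrX:140982202-140982451) lies inside the gene span given above. The bases before the annotated beginning of MAGEC3 were therefore not read. Among 35116 RefSeq promoters read over the same length, 14.5% held CCGGAA, 5.85% held CCGGAT and 18.7% held either, on either strand. CCGGAT was added to the search after the sequences had been read, so its presence in the members is a description of these windows only.

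The windows also differed in CG content. MAGEB2 held 15 CG dinucleotides, the second start of MAGEB1 held 13, MAGEB10 held 12, MAGEC1 held 11, MAGEB6 held 8 and MAGEC2 held 6, against a median of 11 over all RefSeq promoters (quartiles 3 and 23). MAGEC3 held 4 in its window inside the gene span, and MAGEB3, MAGEB4 and the first start of MAGEB1 held 1 each. The MAGEB2 window and the second MAGEB1 window were identical at 174 of 195 aligned bases (89.2%), and the MAGEC1 and MAGEC2 windows at 167 of 199 (83.9%). DNA methylation was not measured in the files used here.

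**Figure D1:**
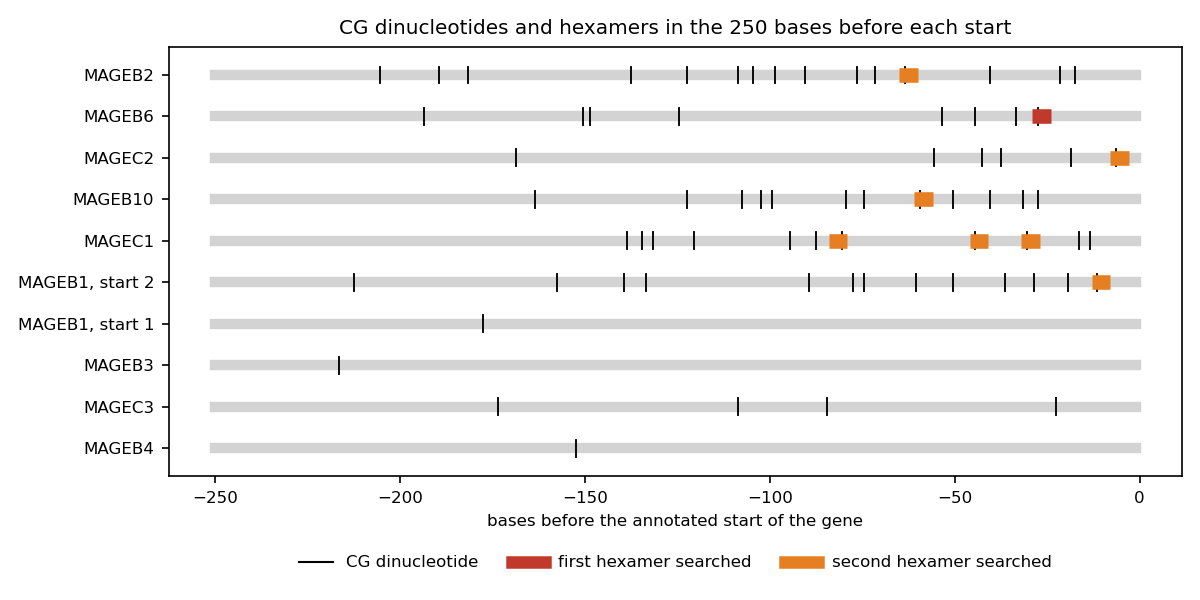
Positions of CG dinucleotides and of the hexamers CCGGAA (first searched) and CCGGAT (second searched), on either strand, in the 250 bases before the RefSeq start of each gene; the horizontal axis is the distance from the transcription start in bases, and each line is 1 start. MAGEB2, MAGEB10 and the second MAGEB1 start hold 15, 12 and 13 CG dinucleotides, whereas MAGEB3, MAGEB4 and the first MAGEB1 start hold 1 each. The MAGEC3 start lies inside its annotated gene span.

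Groups were compared with limma, a linear model fitted to log2(FPKM + 1) of all genes, and a gene was called at an adjusted p below 0.05. Some properties of the libraries bear on these low-level genes. CHD4 averaged 28.4 ± 1.12 FPKM in siCHD4 plus siDNMT1, against 68.2 ± 5.19 FPKM in control siRNA plus siDNMT1. It averaged 54.9 ± 2.06 FPKM in siCHD4 plus decitabine, against 76.2 ± 8.17 FPKM in control siRNA plus decitabine, and that difference did not pass the test (log2 change -0.46, limma adjusted p = 0.0752; without control siRNA plus decitabine replicate 0, -0.55, adjusted p = 0.0449). It averaged 31.3 ± 7.87 FPKM in siCHD4, against 62.8 ± 4.78 FPKM in control siRNA (SD, n = 3 each). FPKM values carry no read totals, but the step between low values gives the worth of 1 fragment relative to control siRNA replicate 0. One library, control siRNA plus decitabine replicate 0, stood apart with a worth of 4.11, against 0.599 to 1.12 in the other 17, so low values are coarser in that library. Low values were finest in siCHD4 plus decitabine (0.607, 0.599 and 0.717) and in siCHD4 replicates 0 and 1 (0.642 and 0.669). Traces are listed more readily in those libraries. Each of the 8 colon epithelial markers listed reached 1 FPKM in at least 1 library, and their sum was 1055 FPKM or more in every library.

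In cells that received both siCHD4 and siDNMT1, MAGEB2, MAGEB6 and MAGEC2 reached 9.46 to 14.7 FPKM, and MAGEB10 and MAGEC1 reached 1.75 to 3.27 FPKM, while the cells given control siRNA plus siDNMT1 stayed below 0.65 FPKM for each gene. The summed level of the 9 genes was 40.7, 48.3 and 43.3 FPKM in the siCHD4 plus siDNMT1 libraries, against 1.25, 1.57 and 1.02 FPKM in control siRNA plus siDNMT1. All 5 members that passed the filter on low values rose. They passed that filter only through the groups where they are high, so their number is no support in itself. Of the 12809 genes tested, 24.8% were called higher and 24.6% lower in this comparison. Without the filter, 7 of the 8 members listed above 0 anywhere were called higher, beside 23.4% of the 19824 genes above 0 and 26.6% of those with a mean under 0.5 FPKM in control siRNA plus siDNMT1. The 3 siCHD4 plus siDNMT1 libraries were all above the other 3 in 7 of the 9 members, beside 30.6% of genes above 0. MAGEB4 was at 0 in all 18 libraries. A bulk level cannot tell more cells expressing a gene apart from more RNA per expressing cell.

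MAGEB2, whose protein is known to limit stress granule formation in human cells, was the most abundant member. It had 13.1, 14.0 and 14.7 FPKM in siCHD4 plus siDNMT1, against 0.293, 0.645 and 0.233 FPKM in control siRNA plus siDNMT1. The groups did not overlap, and the log2 change of FPKM + 1 was 3.44 ± 0.27 (SE, limma adjusted p = 2.01e-07). MAGEB6 followed with 12.4, 13.7 and 11.8 FPKM in siCHD4 plus siDNMT1, against 0.414, 0.325 and 0.125 FPKM in control siRNA plus siDNMT1. Its log2 change was 3.41 ± 0.13 (SE, adjusted p = 1.30e-10), with all 3 libraries of siCHD4 plus siDNMT1 above the other 3. Of the 50-base words of the MAGEB6 transcript, 10.2% also occur in another gene, MAGEB6B, so part of its level could be split with or taken from that copy.

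MAGEC2, whose protein binds the ubiquitin ligase and co-repressor TRIM28, had 9.46, 14.0 and 10.6 FPKM in siCHD4 plus siDNMT1, against 0.230, 0.190 and 0.244 FPKM in control siRNA plus siDNMT1. The groups were far apart, with a log2 change of 3.32 ± 0.13 (SE, adjusted p = 1.98e-10). MAGEC1, its neighbour, known as an antigen in multiple myeloma, had 2.74, 1.75 and 2.86 FPKM in siCHD4 plus siDNMT1, against 0, 0 and 0.106 FPKM in control siRNA plus siDNMT1. Its log2 change was 1.72 (adjusted p = 1.66e-07), and its lowest siCHD4 plus siDNMT1 library stood above the highest control library. MAGEB10 had 2.38, 3.27 and 2.57 FPKM in siCHD4 plus siDNMT1, against 0.177, 0.259 and 0.312 FPKM in control siRNA plus siDNMT1, again without overlap (log2 change 1.58, adjusted p = 1.15e-07). The median log2 change of the 5 members was 3.32, beside -0.01 over all genes tested. The members passed the filter through these high levels, so the gap is a description and no support.

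The other 4 members were low or absent. MAGEB1 had 0.527, 1.43 and 0.718 FPKM in siCHD4 plus siDNMT1, against 0.137, 0.151 and 0 FPKM in control siRNA plus siDNMT1, and it was called higher when no filter was used (log2 change 0.76, limma adjusted p = 0.000203). MAGEB3 had 0.0942, 0.0512 and 0.0428 FPKM in siCHD4 plus siDNMT1 and was listed at 0 in the other 15 libraries. Its unfiltered call (log2 change 0.09, limma adjusted p = 0.000713) rests on levels below 0.1 FPKM. MAGEB4 and MAGEC3 were at 0 in all 6 of these libraries. Within the short-arm cluster the levels therefore differed widely between neighbours: MAGEB2 was above 13 FPKM in siCHD4 plus siDNMT1, and MAGEB3, whose gene begins 10567 bases further on, stayed below 0.1 FPKM.

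**Figure D2:**
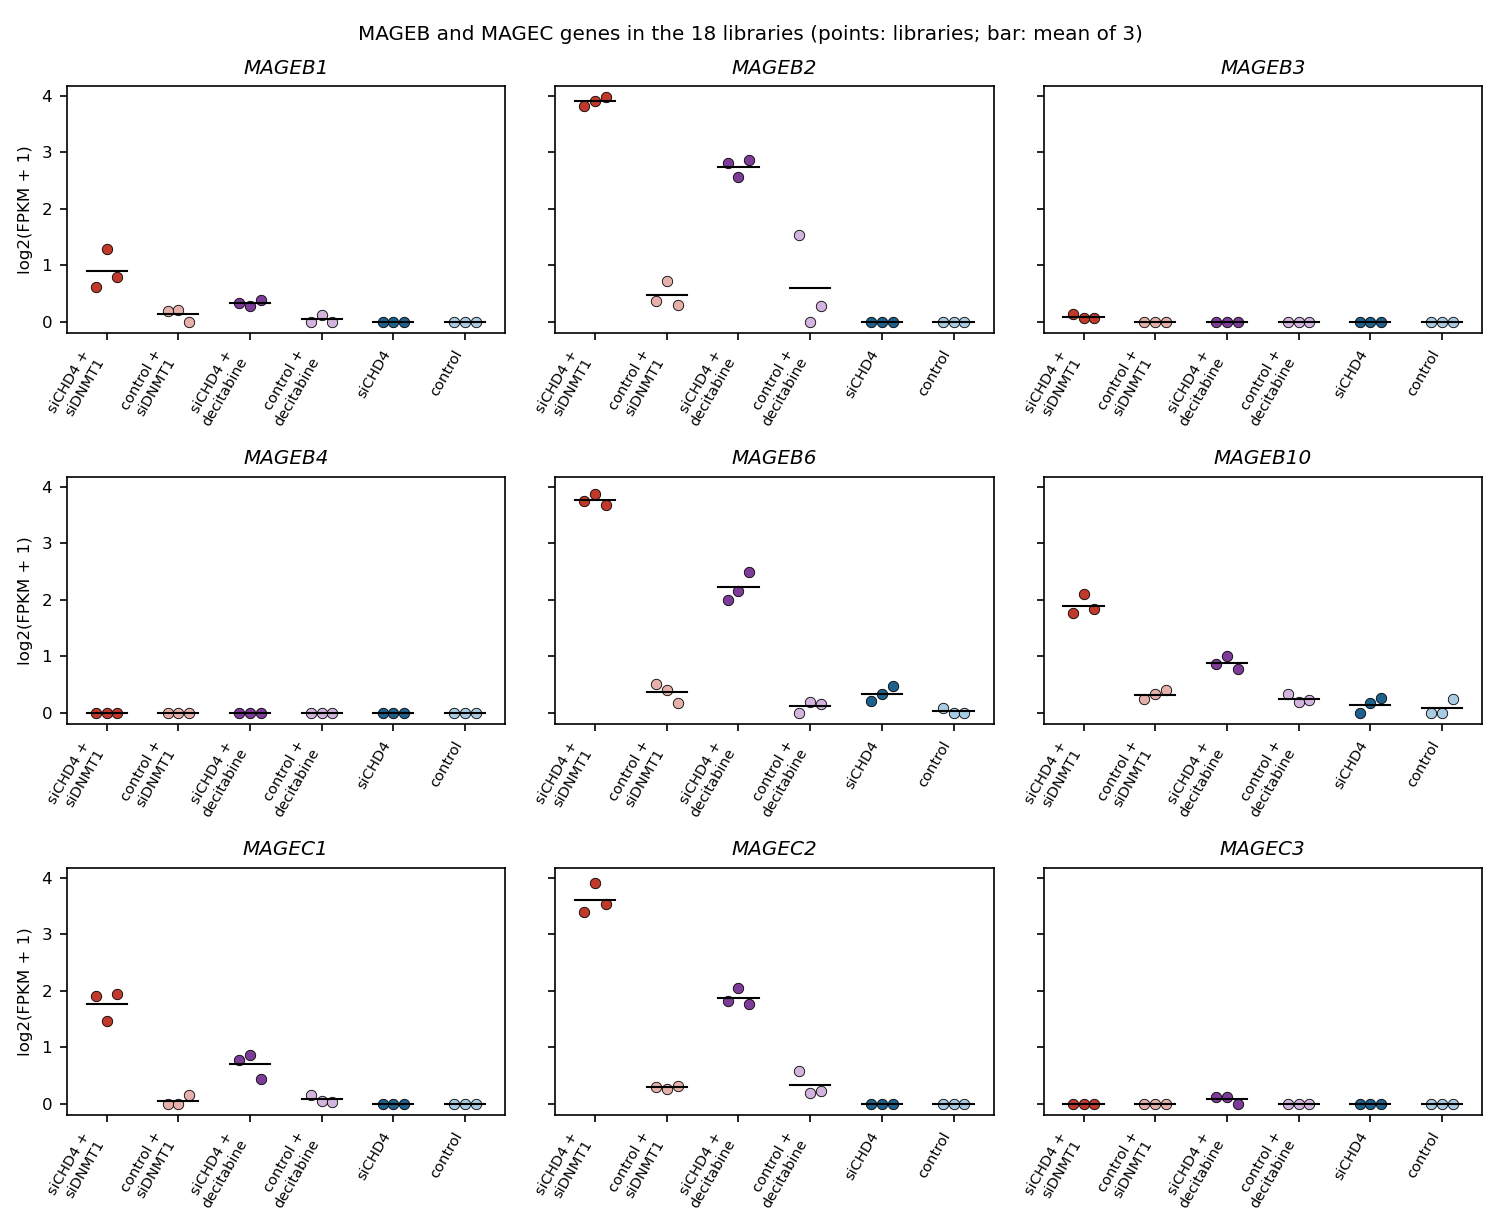
Level of each of the 9 genes in each of the 18 libraries, as log2(FPKM + 1) on the vertical axis, grouped by treatment; each point is 1 library and each bar the mean of 3. For 6 genes every siCHD4 plus siDNMT1 library stands above every siCHD4 plus decitabine library, and these stand above the other 12 libraries. The share of all genes with this order was not counted.

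With decitabine in place of siDNMT1, the same 5 members were called higher at lower levels. The summed level of the 9 genes was 13.4, 13.6 and 14.7 FPKM in siCHD4 plus decitabine, against 2.76, 0.523 and 0.663 FPKM in control siRNA plus decitabine. Of all genes tested, 3.26% were called higher in this comparison, and without the filter 5 of the 8 members above 0 were called higher, beside 3.39% of genes above 0 and 5.46% of those with a mean under 0.5 FPKM in control siRNA plus decitabine. In 6 of the 9 members all 3 siCHD4 plus decitabine libraries were above the other 3, beside 14.2% of genes above 0. The 5 members that passed the filter had a median log2 change of 1.54, beside 0.01 over all genes tested. They passed it only through the groups where they are high, so this gap too is a description.

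MAGEB2 had 5.99, 4.89 and 6.28 FPKM in siCHD4 plus decitabine, against 1.90, 0 and 0.205 FPKM in control siRNA plus decitabine. The groups did not overlap (log2 change 2.14 ± 0.27 SE, limma adjusted p = 0.000137); with the compared groups alone fitted, the call was lost (limma adjusted p = 0.0677). The 1.90 FPKM came from the library with the coarse low values, so it rests on few fragments. Divided by the worth of a fragment it was 0.462, against 0.232 and 0 in the other libraries of that group. These quotients are relative fragment numbers and not corrected levels. Without that library the log2 change of MAGEB2 was 2.61 (limma adjusted p = 2.52e-08), and all 5 members were again called.

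MAGEB6 had 3.00, 3.46 and 4.62 FPKM in siCHD4 plus decitabine, against 0, 0.139 and 0.110 FPKM in control siRNA plus decitabine (log2 change 2.10, limma adjusted p = 1.3e-07). MAGEC2 had 2.52, 3.12 and 2.38 FPKM in siCHD4 plus decitabine, against 0.498, 0.135 and 0.161 FPKM in control siRNA plus decitabine (log2 change 1.54, limma adjusted p = 3.49e-06). Both genes had all 3 siCHD4 plus decitabine libraries well above the control libraries. MAGEB10 had 0.822, 1.00 and 0.709 FPKM in siCHD4 plus decitabine, against 0.255, 0.139 and 0.165 FPKM in control siRNA plus decitabine (log2 change 0.64, limma adjusted p = 0.00367). MAGEC1 had 0.713, 0.818 and 0.357 FPKM in siCHD4 plus decitabine, against 0.108, 0.0294 and 0.0233 FPKM in control siRNA plus decitabine (log2 change 0.62, limma adjusted p = 0.0118). These are the smallest changes of the 5, though neither gene's groups overlapped. The MAGEB10 call was lost under quantile normalization (0.34, limma adjusted p = 0.178) and when the compared groups alone were fitted (limma adjusted p = 0.0593). So was the MAGEC1 call (0.19, limma adjusted p = 0.437, and limma adjusted p = 0.11), and it was also lost without siCHD4 plus decitabine replicate 0 (adjusted p = 0.0621) or replicate 1 (adjusted p = 0.074).

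MAGEB1 had 0.261, 0.216 and 0.309 FPKM in siCHD4 plus decitabine, against 0, 0.0807 and 0 FPKM in control siRNA plus decitabine. The libraries were separated, but the unfiltered test was not passed (log2 change 0.30, limma adjusted p = 0.193). MAGEC3 was listed above 0 only in siCHD4 plus decitabine, at 0.0870, 0.0807 and 0 FPKM. It did not pass the unfiltered test either (log2 change 0.08, limma adjusted p = 0.0886). A fragment was worth 0.607, 0.599 and 0.717 in that group, against 4.11, 1.12 and 0.883 in control siRNA plus decitabine. Such a trace was therefore listed more readily in siCHD4 plus decitabine. MAGEB3 and MAGEB4 were at 0 in all 6 decitabine libraries.

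With siCHD4 alone, the genes stayed near 0. No member was called by limma among the 5 tested, beside 9.58% of all genes called higher, and 1 member (MAGEB6) had an unadjusted p under 0.05. Without the filter the count was again 0 of 8, beside 5.91% of genes above 0 and 3.29% of those with a mean under 0.5 FPKM in control siRNA, with the same 1 member under an unadjusted p of 0.05. MAGEB6 had 0.158, 0.249 and 0.378 FPKM in siCHD4, against 0.0620, 0 and 0 FPKM in control siRNA. It was the only 1 of the 9 members with separated libraries, beside 13.8% of genes above 0, and its log2 change was 0.30 (limma adjusted p = 0.106). With a pseudocount of 0.1 in place of 1 it was 1.58 and passed (adjusted p = 0.00953). MAGEB10 had 0, 0.124 and 0.189 FPKM in siCHD4, against 0, 0 and 0.185 FPKM in control siRNA, which overlap. The other 7 members were listed at 0 in all 6 of these libraries.

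Without siCHD4, no member was called by limma with siDNMT1 or with decitabine. In control siRNA plus siDNMT1 the sum of the 9 genes was 1.25, 1.57 and 1.02 FPKM, against 0.0620, 0 and 0.185 FPKM in control siRNA. None of the 5 tested passed, beside 6.94% of all genes called higher (4.98% without the filter); 2 of the 5 had an unadjusted p under 0.05, and 3 of 8 without the filter. The libraries were separated for 3 of the 9 members, beside 16% of genes above 0. MAGEB6, with a log2 change of 0.33 (limma adjusted p = 0.116), and MAGEC2, with 0.29 (limma adjusted p = 0.189), were the 2 under 0.05 with the filter. MAGEB2, whose libraries were separated, had a log2 change of 0.46 (limma adjusted p = 0.302). With a pseudocount of 0.1, MAGEB6 (1.64, limma adjusted p = 0.00937) and MAGEC2 (1.68, limma adjusted p = 0.0018) were called. MAGEB2 (limma adjusted p = 0.0357) and MAGEC2 (limma adjusted p = 0.0165) were called when the compared groups alone were fitted, and MAGEB2 without control siRNA plus decitabine replicate 0 (limma adjusted p = 0.0136). DNMT1 itself averaged 12.3 ± 1.15 FPKM in control siRNA plus siDNMT1, against 44.7 ± 0.892 FPKM in control siRNA (SD, n = 3 each).

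In control siRNA plus decitabine the sum was 2.76, 0.523 and 0.663 FPKM, against 0.0620, 0 and 0.185 FPKM in control siRNA. No member passed, beside 9.6% of all genes called higher (6.32% without the filter), and 2 members had an unadjusted p under 0.05 with or without the filter, MAGEB2 and MAGEC2. The libraries were separated for 2 of the 9 members, beside 13.5% of genes above 0. MAGEC2 had a log2 change of 0.33 (limma adjusted p = 0.102), and MAGEB2 one of 0.60 (limma adjusted p = 0.133). Without control siRNA plus decitabine replicate 1, which was at 0, the MAGEB2 change was 0.90 and passed (limma adjusted p = 0.0235). Without replicate 0, which held the 1.90 FPKM, it was 0.13. With a pseudocount of 0.1, MAGEC2 was called (1.73, limma adjusted p = 0.00121).

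The size of the siCHD4 effect was compared between backgrounds in the same fit. The effect with siDNMT1 exceeded that of siCHD4 alone for all 5 members tested, by 3.44 for MAGEB2, 3.11 for MAGEB6 and 3.32 for MAGEC2 on the log2 scale, beside 2.83% of all genes called higher. The effect with decitabine exceeded that of siCHD4 alone for 3 of the 5 (MAGEB2, MAGEB6 and MAGEC2), beside 0.773% of all genes. The MAGEB2 call there was lost with a pseudocount of 0.1 (limma adjusted p = 0.0971) and when the compared groups alone were fitted (limma adjusted p = 0.0781). For MAGEB10 the difference was 0.58 (limma adjusted p = 0.12) and for MAGEC1 0.62 (limma adjusted p = 0.142). The effect with siDNMT1 exceeded the effect with decitabine for all 5, by 0.94 for MAGEB10 to 1.78 for MAGEC2, beside 4.16% of all genes. As a ratio of mean FPKM, siCHD4 over its control, MAGEB6 was alike with siDNMT1 (43.9) and with decitabine (44.5). The ratio was larger with siDNMT1 for MAGEB2 (35.7 against 8.15), MAGEB10 (11.0 against 4.54), MAGEC1 (69.4 against 11.7) and MAGEC2 (51.3 against 10.1). The control means in these ratios are near 0. The lowering of CHD4 itself also differed between these backgrounds, by -0.77 on the log2 scale (limma adjusted p = 0.0289), and its part in the member differences was not tested. With a pseudocount of 0.1, only MAGEC2 kept its call there; MAGEB2 (limma adjusted p = 0.504), MAGEB6 (0.67, limma adjusted p = 0.432), MAGEB10 (limma adjusted p = 0.194) and MAGEC1 (limma adjusted p = 0.0529) lost theirs. The MAGEB2 difference in that comparison was 1.30 (limma adjusted p = 0.0469) and lost its call in most other alternatives as well; without control siRNA plus decitabine replicate 0 it was 0.83 (limma adjusted p = 0.0154).

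**Figure D3:**
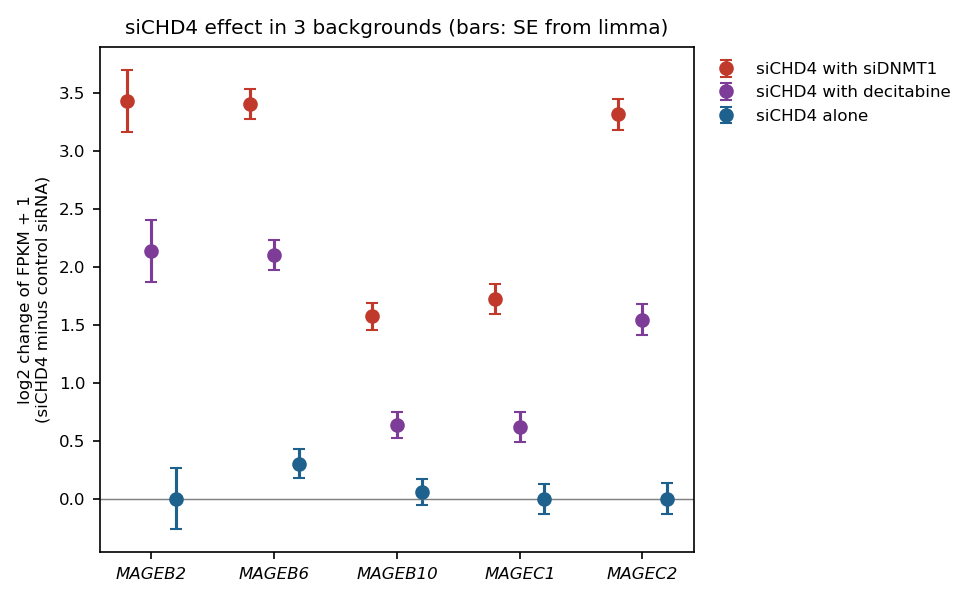
Log2 change of FPKM + 1 for siCHD4 over control siRNA in the 3 backgrounds, for the 5 members that passed the filter on low values; points are the estimates and bars are the SE from limma. MAGEB2, MAGEB6 and MAGEC2 lie between 3.32 and 3.44 with siDNMT1 and between 1.54 and 2.14 with decitabine, and all 5 lie at 0.30 or below with siCHD4 alone.

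The order of the groups was shared by most members. How many of all genes keep the order given next was not counted, so the number of members is a description. In 6 of the 9 genes (MAGEB1, MAGEB2, MAGEB6, MAGEB10, MAGEC1 and MAGEC2) every siCHD4 plus siDNMT1 library was above every siCHD4 plus decitabine library, and every siCHD4 plus decitabine library was above all 12 others. The mean in siCHD4 plus siDNMT1 was 2.44 times that in siCHD4 plus decitabine for MAGEB2, 3.24 times for MAGEB10, 3.43 times for MAGEB6, 3.89 times for MAGEC1 and 4.25 times for MAGEC2, with different schedules. The remaining 4 groups did not keep a shared order: control siRNA plus siDNMT1 and control siRNA plus decitabine overlapped for MAGEB2, for example.

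Both siCHD4 combinations gave the same order of genes by mean level, whereas means in the other groups were low and set no clear order. Since FPKM is a level per transcript length, genes can be compared within a group. By mean level, MAGEB2 came first in both siCHD4 plus siDNMT1 and siCHD4 plus decitabine, followed by MAGEB6, MAGEC2, MAGEB10, MAGEC1 and MAGEB1. In control siRNA plus siDNMT1 the means of MAGEB10 and MAGEB1 stood above those of MAGEC2 and MAGEC1. There the ranges of MAGEB10 (0.177 to 0.312 FPKM) and MAGEC2 (0.190 to 0.244 FPKM) overlapped. MAGEB1 and MAGEC1 averaged 0.0960 and 0.0353 FPKM, too low to set an order. In control siRNA plus decitabine MAGEC2 came second by mean, with a range overlapping those of MAGEB2 and MAGEB10. In siCHD4 only MAGEB6 and MAGEB10 were above 0, with MAGEB6 first. In siCHD4 plus siDNMT1 the ranges of MAGEB2, MAGEB6 and MAGEC2 overlapped, and so did those of MAGEB10 and MAGEC1. Across the 18 libraries the pairwise Pearson correlation of log2(FPKM + 1) between the 5 members was 0.925 to 0.988; the libraries share treatments and depth, so this describes the group pattern they have in common.

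The genes whose pattern over the 18 libraries was most like the mean of the 5 members were IL23R (r = 0.993), which encodes the interleukin-23 receptor, ESR1 (r = 0.993), which encodes oestrogen receptor alpha, and VCX (r = 0.991), another X-linked cancer-testis gene. FN1, encoding fibronectin, and AGXT, encoding an aminotransferase of liver peroxisomes, followed at r = 0.986 each. VCX averaged 14.7 ± 0.940 FPKM in siCHD4 plus siDNMT1, against 0.286 ± 0.0137 FPKM in control siRNA plus siDNMT1, and was at 0 in siCHD4 and control siRNA. IL23R averaged 4.30 ± 0.106 FPKM in siCHD4 plus siDNMT1, against 0.0810 ± 0.0665 FPKM in control siRNA plus siDNMT1 (SD, n = 3 each). In all, 180 of the 12809 genes tested had r above 0.9.

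Other cancer-testis genes of chromosome X were also called higher with siCHD4 in both backgrounds, but many of them were called without siCHD4 too. Of 13 MAGEA genes, 8 passed the filter, and all 8 were called higher in siCHD4 plus siDNMT1 and in siCHD4 plus decitabine, with median log2 changes of 1.68 and 1.36; none was called with siCHD4 alone. MAGEA4 averaged 10.6 ± 1.64 FPKM in siCHD4 plus siDNMT1, against 0.384 ± 0.0842 FPKM in control siRNA plus siDNMT1 (log2 change 3.06, limma adjusted p = 1.3e-10). Of 40 other X-linked cancer-testis genes, 14 passed the filter. All 14 were called higher in siCHD4 plus siDNMT1 (median log2 change 1.44), 12 in siCHD4 plus decitabine (median 1.13) and 2 in siCHD4. In control siRNA plus siDNMT1 against control siRNA, 4 of the 8 MAGEA genes and 8 of the 14 others were called higher, with 0 of the 5 MAGEB and MAGEC genes. In control siRNA plus decitabine against control siRNA, 5 of the 8 and 11 of the 14 were called higher, again with 0 of the 5. The siCHD4 effect with siDNMT1 exceeded that with decitabine for 2 of the 8 and 6 of the 14, with 5 of the 5. Whether the lists differ from the members was not tested. SSX1, a transcriptional repressor also known from synovial sarcoma fusions, averaged 18.4 ± 0.879 FPKM in siCHD4 plus siDNMT1, against 2.22 ± 0.471 FPKM in control siRNA plus siDNMT1 (log2 change 2.60, limma adjusted p = 1.45e-07). The genes in these lists passed the filter in the way the members did, so the counts are descriptions. Of all genes tested, 24.8% were called higher for siCHD4 with siDNMT1, 3.26% for siCHD4 with decitabine and 9.58% for siCHD4 alone. The shares were 6.94% for siDNMT1 and 9.6% for decitabine without siCHD4, and 4.16% for the siDNMT1 effect over the decitabine effect.

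MAGE genes that are transcribed in many tissues were called in both directions with siDNMT1, as were genes in general. Of 12 listed, 5 passed the filter. In siCHD4 plus siDNMT1, 3 were called higher and 2 lower, beside 24.8% and 24.6% of all genes. None was called in siCHD4 plus decitabine, beside 3.26% of all genes called higher, and 1 was called higher in siCHD4, beside 9.58%. MAGEH1, first by p, averaged 1.79 ± 0.235 FPKM in siCHD4 plus siDNMT1, against 0.544 ± 0.0823 FPKM in control siRNA plus siDNMT1. Its log2 change was 0.85 (limma adjusted p = 0.000332), and it was at 0 in siCHD4 and control siRNA. It was also called higher without siCHD4, with siDNMT1 (0.63, limma adjusted p = 0.0126) and with decitabine (0.72, limma adjusted p = 0.00372). MAGED2, a regulator of renal salt transport, averaged 43.4 ± 3.60 FPKM in siCHD4 plus siDNMT1, against 33.4 ± 1.46 FPKM in control siRNA plus siDNMT1 (log2 change 0.37, limma adjusted p = 0.0078). NDNL2, a subunit of the SMC5/6 complex, averaged 31.5 ± 2.05 FPKM in siCHD4 plus siDNMT1, against 39.6 ± 2.25 FPKM in control siRNA plus siDNMT1 (log2 change -0.32, limma adjusted p = 0.00297).

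Of 6 ubiquitin ligases that MAGE proteins bind, 5 passed the filter. In siCHD4 plus siDNMT1, 1 was called higher and 1 lower, beside 24.8% and 24.6% of all genes, and none was called in the other siCHD4 comparisons. TRIM28, the partner of MAGEC2, averaged 137 ± 7.71 FPKM in siCHD4 plus siDNMT1, against 118 ± 11.1 FPKM in control siRNA plus siDNMT1, which did not pass (log2 change 0.22, limma adjusted p = 0.14). PJA1, a ligase bound by MAGED1, averaged 17.8 ± 1.30 FPKM in siCHD4 plus siDNMT1, against 10.3 ± 0.436 FPKM in control siRNA plus siDNMT1 (log2 change 0.73, limma adjusted p = 0.000243). TRIM27, a ligase bound by MAGEL2, averaged 29.3 ± 2.41 FPKM in siCHD4 plus siDNMT1, against 41.5 ± 1.23 FPKM in control siRNA plus siDNMT1 (log2 change -0.49, limma adjusted p = 0.0167).

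**Figure D4:**
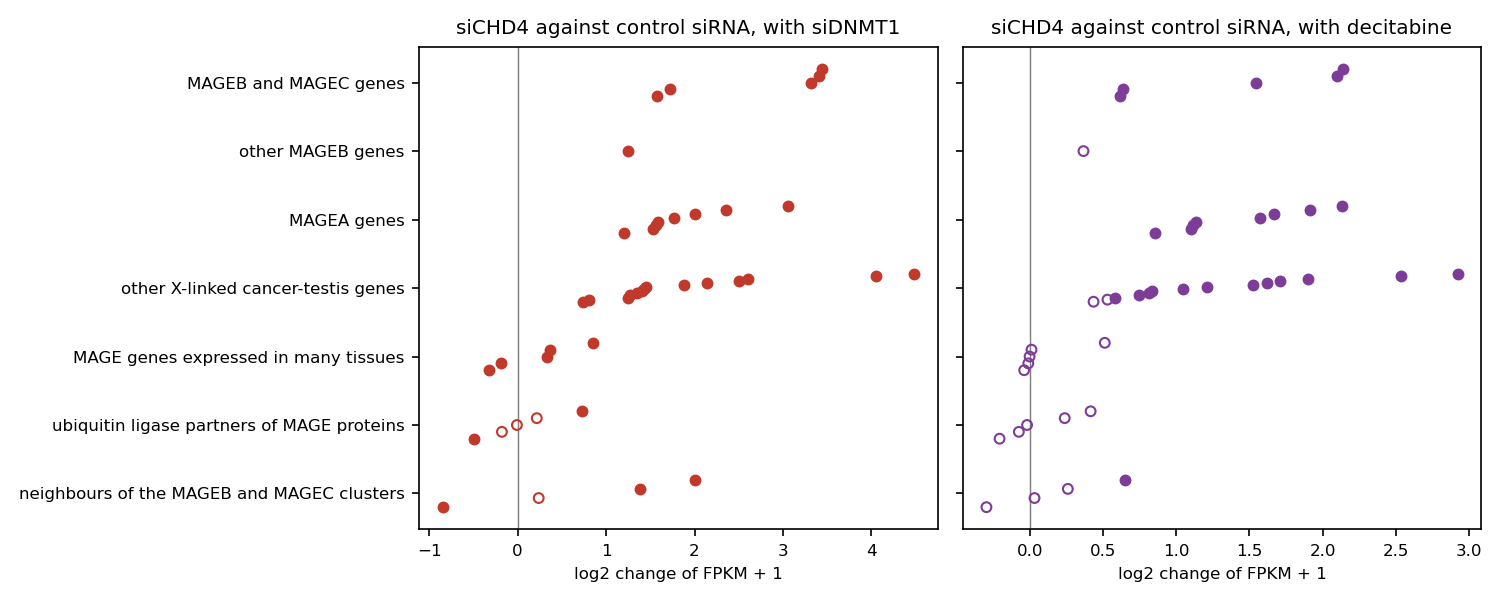
Log2 change of FPKM + 1 for siCHD4 over control siRNA with siDNMT1 (left) and with decitabine (right), for the genes of each list that passed the filter on low values; each point is 1 gene, filled where limma called it and open where it did not. All 5 MAGEB and MAGEC genes and all 8 MAGEA genes tested were called higher with siDNMT1 and with decitabine. The MAGE genes of many tissues were called in both directions with siDNMT1, as were genes in general. Of all genes tested, 24.8% were called higher and 24.6% lower with siDNMT1, and 3.26% higher with decitabine.

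Summed marker levels of other cell types were higher with siCHD4 in the siDNMT1 and decitabine backgrounds, without overlap. With siCHD4 alone the ranges overlapped in each of these lists, and the sums were not tested. The summed level of 8 germ cell markers was 4.60 to 7.35 FPKM in siCHD4 plus siDNMT1, against 3.22 to 4.23 FPKM in control siRNA plus siDNMT1; 8.62 to 9.67 FPKM in siCHD4 plus decitabine, against 6.31 to 7.77 FPKM in control siRNA plus decitabine; and 0.455 to 0.719 FPKM in siCHD4, against 0.227 to 0.477 FPKM in control siRNA. The defining sperm genes PRM1, PRM2 and TNP1 were at 0 in all 18 libraries, and SYCP1 and ACR stayed under 1 FPKM. The 6 fibroblast markers summed to 12.8 to 14.8 FPKM in siCHD4 plus siDNMT1, against 3.62 to 3.87 FPKM in control siRNA plus siDNMT1, and to 6.10 to 6.89 FPKM in siCHD4 plus decitabine, against 0.544 to 3.67 FPKM in control siRNA plus decitabine. They summed to 0.289 to 3.74 FPKM in siCHD4, against 0.121 to 0.471 FPKM in control siRNA, with COL3A1 at 0 in all 18 libraries. COL1A2 and PDGFRA stayed under 1 FPKM throughout. The 6 blood cell markers summed to 4.85 to 5.63 FPKM in siCHD4 plus siDNMT1, against 1.63 to 2.20 FPKM in control siRNA plus siDNMT1, and to 2.22 to 2.92 FPKM in siCHD4 plus decitabine, against 1.12 to 2.03 FPKM in control siRNA plus decitabine. They summed to 1.13 to 1.63 FPKM in siCHD4, against 0.660 to 1.66 FPKM in control siRNA, with HBB at 0 in all 18 libraries. CD3E and CD14 stayed under 1 FPKM throughout. The 8 colon epithelial markers summed to 1055 to 1097 FPKM in siCHD4 plus siDNMT1, against 1800 to 1879 FPKM in control siRNA plus siDNMT1. They summed to 1440 to 1499 FPKM in siCHD4 plus decitabine, against 1883 to 2457 FPKM in control siRNA plus decitabine, and to 1197 to 1365 FPKM in siCHD4, against 2015 to 2128 FPKM in control siRNA. The part of these shifts in the member values was not tested.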

How the data were processed

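Per the submitters' processing notes, reads were handled with TopHat2 2.0.9 and Cuffdiff 2.1.1 on hg19 (GRCh37). The authors deposited 1 table of FPKM values (fragments scaled to transcript length and to library size) for 18 libraries. Per the labels' protocols, these were stranded total RNA libraries with ribosomal RNA removed. The sources do not state the annotation, the scaling between libraries or the counting strand, and the depth per library is unknown. Of 23599 entries, 28 (0.119%) name no gene and were left out.

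Values were tested as log2(FPKM + 1) with limma 3.58.1 in R 4.3.3, with 1 mean per group over all 18 libraries (12 residual degrees of freedom), a mean-variance trend and Benjamini-Hochberg adjustment over the 12809 genes that reached 1 FPKM in 3 or more libraries. The threshold was an adjusted p of 0.05. A change on this scale understates that of low genes. The script was checked on simulated data, with changes added only to genes above 1 on the log2(FPKM + 1) scale in control siRNA. That check does not cover genes near 0 there, such as the members. Within groups, libraries correlated at r = 0.929 to 0.98. Group membership came from the labels. The members and gene lists were chosen with earlier results of these data known, and all members are described; genes of other lists are named by their rank of adjusted p or for a known role. Alternatives were another pseudocount, no filter, median ratio and quantile scaling, a replicate block, fits of the compared groups only, and leaving out each library.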

Additional observations from a re-analysis of the deposited data

Results flagged for a closer look

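For 13 member values the siCHD4 effect differed between backgrounds by an interaction term in limma, all on the log2(FPKM + 1) scale, and the schedules differ between the backgrounds. With siDNMT1 the effect exceeded that of siCHD4 alone by 3.44 for MAGEB2 (adjusted p = 4.19e-05), 3.11 for MAGEB6 (adjusted p = 5.46e-08), 1.52 for MAGEB10 (adjusted p = 3.65e-05), 1.72 for MAGEC1 (adjusted p = 3.65e-05) and 3.32 for MAGEC2 (adjusted p = 4.83e-08). With decitabine it exceeded that of siCHD4 alone by 2.14 for MAGEB2 (adjusted p = 0.0105, lost with a pseudocount of 0.1 at 0.0971 and with the compared groups alone at 0.0781), 1.80 for MAGEB6 (adjusted p = 0.000111) and 1.54 for MAGEC2 (adjusted p = 0.000547). The effect with siDNMT1 exceeded the effect with decitabine by 1.30 for MAGEB2 (adjusted p = 0.0469), 1.31 for MAGEB6 (adjusted p = 0.00139), 0.94 for MAGEB10 (adjusted p = 0.00491), 1.10 for MAGEC1 (adjusted p = 0.00419) and 1.78 for MAGEC2 (adjusted p = 0.000236). With a pseudocount of 0.1, only MAGEC2 kept its call in this last comparison. In each of the 13, the 3 libraries of the siCHD4 group in the first-named background were above the 3 of its control group. Of genes above 0, 30.6% were separated in this way with siDNMT1 and 14.2% with decitabine. Of all genes tested, 2.83%, 0.773% and 4.16% were called higher in the 3 differences, in the order given. The 13 values come from 5 members that passed the filter only through groups where they are high, so their number is no support.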

How the results depend on the processing

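Of 888 member values under 24 alternatives, 844 kept their direction and their side of the threshold, 30 lost their call, 8 gained one and 6 changed sign; no cause was tested. With a pseudocount of 0.1, the number of members called became 1 for decitabine against control siRNA, 2 for siDNMT1 against control siRNA, 1 for siCHD4 against control siRNA and 1 for the siDNMT1 effect over the decitabine effect. Quantile normalization left 3 members called for siCHD4 with decitabine (MAGEB10 and MAGEC1 lost). Fitting the compared groups only left 2 there (MAGEB2, MAGEB10 and MAGEC1 lost) and gave 2 for siDNMT1 against control siRNA. Both that fit and the pseudocount of 0.1 left 2 of 3 for the decitabine effect over siCHD4 alone (MAGEB2 lost). Leaving out 1 library gave 0 to 1 for decitabine (1 without control siRNA plus decitabine replicate 1), 0 to 1 for siDNMT1 (1 without control siRNA plus decitabine replicate 0), 4 to 5 for siCHD4 with decitabine, and 5 throughout for siCHD4 with siDNMT1. Uncalled changes turned sign under quantile normalization for MAGEB10 (-0.035 with decitabine, -0.031 with siDNMT1, -0.043 with siCHD4), MAGEB6 (-0.11 with decitabine) and MAGEC1 (-0.16 with siDNMT1), and MAGEC1 with siDNMT1 ranged from 0 (without control siRNA plus siDNMT1 replicate 2) to 0.073 when 1 library was left out. The scalings moved the median of all genes by at most 0.034. Same-numbered libraries had residual correlations of -0.31 to 0.126 (5 of 45 over 0.1), so numbers were not taken as pairs; a replicate block ended 1 member call, MAGEB2 in siDNMT1 over decitabine (1.30, adjusted p = 0.0613). All-gene counts ranged from 514 to 3447 for siCHD4 (main 2471), 147 to 1240 for siCHD4 with decitabine (586), 890 to 2774 for siDNMT1 (1452) and 929 to 3127 for decitabine (2335). For the differences between siCHD4 effects they ranged from 317 to 2557 (528), 42 to 303 (148) and 308 to 2334 (1076). Levels below about 0.1 FPKM are close to single fragments and set no order.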

Other observations

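MAGEB16, on the short arm and not among the 9 genes, had 1.90, 1.40 and 1.06 FPKM in siCHD4 plus siDNMT1, against 0, 0 and 0.0676 FPKM in control siRNA plus siDNMT1 (log2 change 1.25, limma adjusted p = 1.89e-06). It had 0.365, 0.402 and 0.432 FPKM in siCHD4 plus decitabine, against 0.276, 0 and 0 FPKM in control siRNA plus decitabine. That difference was not called (log2 change 0.37, limma adjusted p = 0.111). MAGEB5 was at 0 in all 18 libraries.

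Of 13 genes listed as neighbours of the members, 4 passed the filter. In siCHD4 plus siDNMT1, 2 were called higher and 1 lower, beside 24.8% and 24.6% of all genes; TAB3 was not called (log2 change 0.24, limma adjusted p = 0.133). IL1RAPL1, a synaptic adhesion gene that ends 258844 bases before MAGEB2, averaged 6.93 ± 1.01 FPKM in siCHD4 plus siDNMT1, against 0.960 ± 0.0787 FPKM in control siRNA plus siDNMT1 (SD, n = 3 each; log2 change 2.01, limma adjusted p = 5.77e-09). Unlike the members it was also called with siCHD4 alone, at 0.465 ± 0.135 FPKM in siCHD4 with control siRNA at 0 in all 3 libraries (log2 change 0.55, limma adjusted p = 0.00263). Also unlike the 5 members tested, it was not called for siCHD4 with decitabine (log2 change 0.26, limma adjusted p = 0.188). DCAF8L1, next to MAGEB10, averaged 1.79 ± 0.334 FPKM in siCHD4 plus siDNMT1, against 0.0671 ± 0.0356 FPKM in control siRNA plus siDNMT1 (log2 change 1.38, limma adjusted p = 1.36e-07). It was also called higher for siCHD4 with decitabine (log2 change 0.65, limma adjusted p = 0.00123). GK, which encodes glycerol kinase, averaged 0.862 ± 0.130 FPKM in siCHD4 plus siDNMT1, against 2.34 ± 0.102 FPKM in control siRNA plus siDNMT1 (log2 change -0.84, limma adjusted p = 1.8e-06). It was also called lower with siCHD4 alone (log2 change -0.76, limma adjusted p = 2.32e-05), and not with decitabine (-0.30, limma adjusted p = 0.0533).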
